A study of Mus musculus with 6 samples.

Results

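Fatty acid oxidation and lipid synthesis in the mouse lung were read through 42 listed genes. A gene was kept if GEO's platform annotation gave at least 1 probe set, a group of short probes for a transcript, to that gene symbol alone, and it was read by its brightest probe set, judged over the 6 arrays. That left 40 of 12393 measured genes, since Acsl1 and Acsl3 had no such probe set and were left out. The kept genes were 22 of oxidation, 13 of lipid synthesis and 5 that belong to neither class alone. The series measured whole lung on Affymetrix MOE430A arrays, 1 array per mouse. Bleomycin, a DNA-damaging drug that causes lung fibrosis when given into the airways, was given to 3 mice (D, E and F) at 1 mg/kg in 50 µl of saline. The other 3 mice (A, B and C) received saline. All 6 were labelled as male wildtype C57BL/6J mice aged 8 to 10 weeks, and lungs were taken at day 14. The series text states oropharyngeal delivery and the array labels state intratracheal delivery, so the route is not settled. RNA came from homogenized lung without trachea and major airways, so a value sums over all cell types. In such samples, fewer cells of a type and less RNA per cell cannot be told apart.

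Fatty acids are burned mainly in mitochondria. Carnitine carries them across the membrane, and a cycle of dehydrogenase, hydratase, dehydrogenase and thiolase steps then shortens the chain. Peroxisomes run a related cycle on very long and branched chains. Synthesis runs the other way, from citrate through acetyl-CoA and malonyl-CoA to palmitate, which is then elongated, desaturated and joined to glycerol. In the lung, the type 2 cell makes lipid for surfactant, lipofibroblasts store droplets, and alveolar macrophages take surfactant lipid up and break it down.

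Some arrays stood apart. On saline B, Xist stood at 11.40 log2 units, against 7.23 to 7.88 on the other 5 arrays, and the Y-linked gene Eif2s3y at 4.05, against 7.23 to 8.02, so both values go against its label. On the first principal component (55.4% of the variance) bleomycin D scored 44.3, against 12.9 and 19.8 for E and F and -28.6 to -21.4 for the saline arrays. Without bleomycin D, 299 of all genes were called higher and 87 lower, and without saline B 306 and 98, against 458 and 236 with all arrays. Counts of called genes in the lists below are given without either array where they change, while counts of non-overlapping groups, of unadjusted p-values and of probe sets are for all 6 arrays. The 3′ minus 5′ signal of the Actb control probe sets, a sign of RNA quality, was 1.23, 1.27 and 1.04 on bleomycin D, E and F, against 1.58, 1.14 and 1.71 on saline A, B and C. For Gapdh it was 0.81, 0.98 and 1.10 on bleomycin D, E and F, against 1.46, 0.88 and 1.39 on saline A, B and C. Saline A and C thus stood apart in both, and the part of this in the results was not tested. Array medians were 7.37 to 7.41, and arrays have no read depth, so the number of mice limits the precision. All values below are log2 expression values, and all differences are on that scale, bleomycin minus saline, with limma's standard error (SE). A gene was called if its limma p-value was under 0.05 after Benjamini-Hochberg adjustment across 22626 probe sets.

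Most of the lipid genes differed little between bleomycin and saline lungs at day 14, and those called were 2 that fell, the peroxisomal thiolase Acaa1b and the glycerol-3-phosphate acyltransferase Gpam. Of the 40 genes, 0 were called higher and 2 lower in limma, and without bleomycin D, or without saline B, 1 was called lower. At an unadjusted p under 0.05 there were 2 higher and 4 lower of the 40, where over all genes 11.7% were higher and 11.0% lower, or 22.7% in either direction. Over all genes, 3.70% were called higher and 1.90% lower, or 5.60% in either direction, and 2 of 40 is near that last share. The differences were 20 positive and 20 negative, with a median of 0.00, against -0.04 over all genes. The median absolute difference was 0.16 for the lipid genes and 0.16 for all genes. The 3 bleomycin arrays lay wholly below the 3 saline arrays for 7 lipid genes (17.5%), where the share over all genes was 14.6%, and wholly above them for 4, where the share over all genes was 13.3%. Both shares are near those of the whole array.

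**Figure D1:**
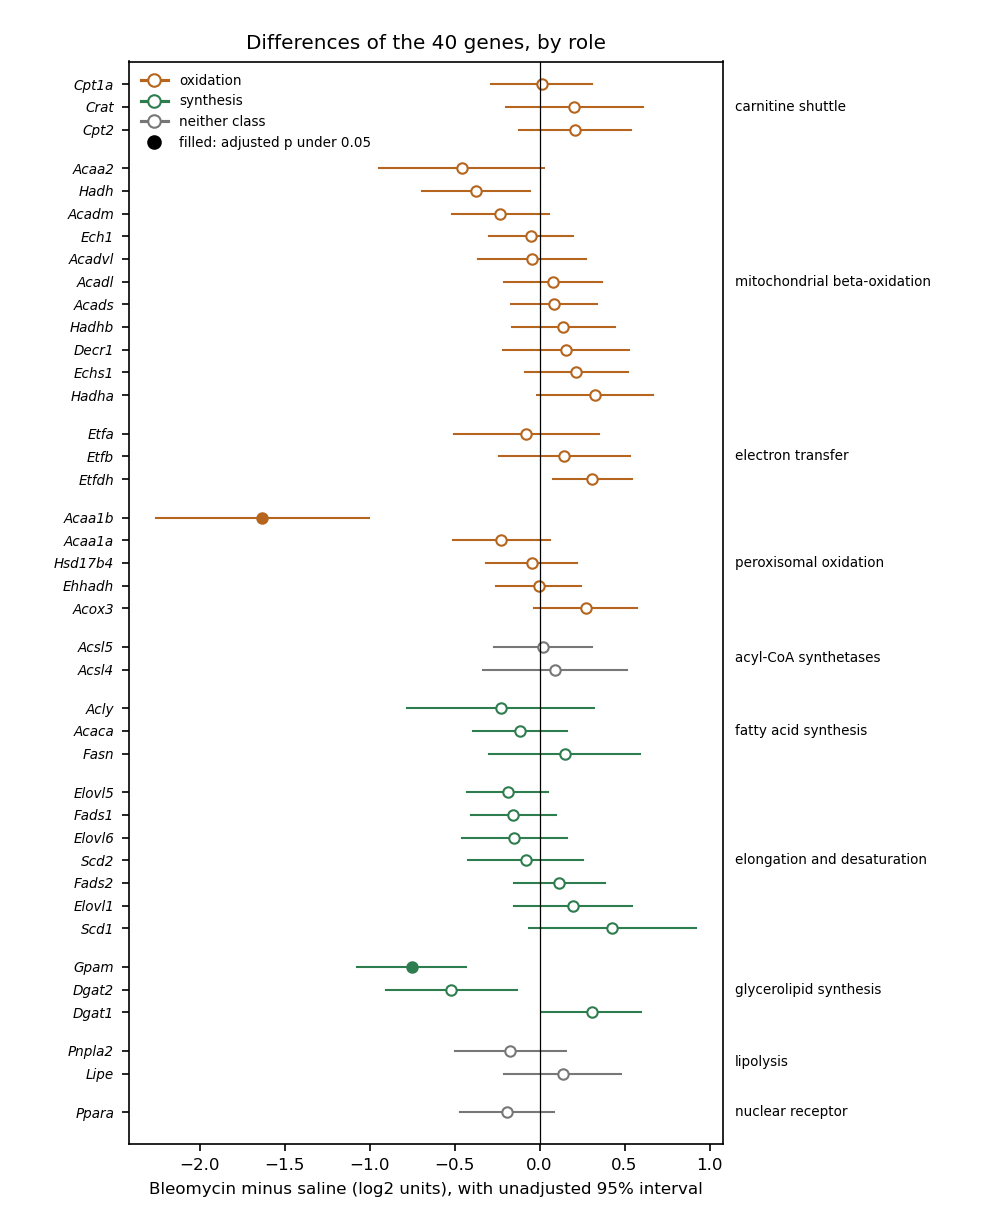
Difference between bleomycin and saline lungs (x axis, log2 units) for each of the 40 genes, grouped by role, with limma's unadjusted 95% interval as a line. Filled points passed an adjusted p of 0.05: Acaa1b at -1.63 and Gpam at -0.75, while the other 38 lie between -0.52 and 0.43.

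The data also bound how large a change could have been missed. For 38 of the 40 genes the unadjusted 95% interval of the difference lay within 1 log2 unit of 0, that is, within a 2-fold change either way, and for 18 it lay within 0.5. The exceptions to the wider bound were Acaa1b and Gpam. Among the 38 genes not called, the interval reached down to -0.94 for Acaa2 and up to 0.92 for Scd1. The SE of a difference was 0.10 to 0.27, with a median of 0.14. The genes not called are therefore not shown to be equal in both groups. These bounds hold for the brightest probe set alone, and dimmer probe sets of Scd1 and Acsl4, given below, differed by more.

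Acaa1b showed the largest difference of the 40 genes. It encodes a peroxisomal 3-ketoacyl-CoA thiolase, the enzyme of the last step of the peroxisomal cycle, and is a rodent duplicate of Acaa1a. It stood at 5.97, 7.17 and 6.13 on bleomycin D, E and F, against 8.03, 8.05 and 8.09 on saline A, B and C. The groups did not overlap, the saline lungs were close together, and bleomycin E lay between the saline level and the other bleomycin lungs. The mean was 6.43 ± 0.65 in bleomycin and 8.06 ± 0.03 in saline lungs (SD, n = 3 each), a difference of -1.63 ± 0.27 (SE, adjusted p = 0.0161 in limma), or 3.10-fold lower. The call held without bleomycin D (adjusted p = 0.0361), bleomycin E (0.0015) or saline B (0.0448), and was lost without bleomycin F (0.0607), saline A (0.0758) or saline C (0.0543), where the difference was still -1.49 to -1.64. Acaa1b is read by 1 probe set.

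The neighbouring copy Acaa1a moved much less. Its values were 9.51, 9.86 and 9.83 on bleomycin D, E and F, against 9.97, 9.90 and 10.00 on saline A, B and C, a difference of -0.22 ± 0.12 (SE, adjusted p = 0.343). The groups did not overlap, with E and F just under the lowest saline array. Acaa1a is read by a probe set of the kind (suffix x) whose probes can bind related transcripts. So are Hadh, Acly, Elovl1 and Elovl5, given below. A pair of further probe sets is annotated to both copies and was therefore assigned to neither. They differed by 0.01 ± 0.14 and -0.21 ± 0.13 (SE, adjusted p = 0.969 and 0.396).

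The promoter windows of both copies and of Gpam are shown because Acaa1b and Gpam were the members called and Acaa1a is the copy that was not. Each holds 300 bases around a RefSeq transcription start, of which the last 50 lie after it, 5′ to 3′, in GRCm38.p6. The windows are chr9:119157044-119157343 on the minus strand for Acaa1b, chr9:119341044-119341343 on the plus strand for Acaa1a, and chr19:55127189-55127488 and chr19:55099428-55099727 on the minus strand for the first and second start of Gpam. Capitals mark CCAAT, the motif bound by NF-Y, and AGGTCA, the core element of many nuclear receptors, each on either strand.
Acaa1b: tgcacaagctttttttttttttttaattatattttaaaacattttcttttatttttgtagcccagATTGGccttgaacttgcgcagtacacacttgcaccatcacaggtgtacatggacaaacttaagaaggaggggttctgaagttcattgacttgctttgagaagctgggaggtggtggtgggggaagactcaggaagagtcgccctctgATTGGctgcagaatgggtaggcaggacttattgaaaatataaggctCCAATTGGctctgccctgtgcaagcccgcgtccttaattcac
Acaa1a: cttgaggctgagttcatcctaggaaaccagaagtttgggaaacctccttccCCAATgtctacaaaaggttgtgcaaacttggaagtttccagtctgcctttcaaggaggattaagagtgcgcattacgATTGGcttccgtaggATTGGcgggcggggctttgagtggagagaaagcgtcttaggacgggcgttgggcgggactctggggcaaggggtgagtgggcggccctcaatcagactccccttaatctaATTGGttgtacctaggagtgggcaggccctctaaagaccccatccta
Gpam, first start: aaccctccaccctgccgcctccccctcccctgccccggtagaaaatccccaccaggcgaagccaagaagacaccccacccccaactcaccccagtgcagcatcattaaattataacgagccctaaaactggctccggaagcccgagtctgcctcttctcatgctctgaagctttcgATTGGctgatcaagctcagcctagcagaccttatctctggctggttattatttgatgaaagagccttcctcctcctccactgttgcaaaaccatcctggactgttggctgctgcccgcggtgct
Gpam, second start: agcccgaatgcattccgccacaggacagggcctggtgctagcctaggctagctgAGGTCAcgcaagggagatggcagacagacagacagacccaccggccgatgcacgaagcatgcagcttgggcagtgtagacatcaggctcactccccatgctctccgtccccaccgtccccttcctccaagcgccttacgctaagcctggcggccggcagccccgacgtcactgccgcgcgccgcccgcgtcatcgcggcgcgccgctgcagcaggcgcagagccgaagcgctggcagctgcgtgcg

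The windows of Acaa1b and Acaa1a each held 4 matches to CCAAT or its reverse complement ATTGG, of which a pair overlaps in Acaa1b, and 0 to AGGTCA. The first Gpam window held 1 match to CCAAT and the second 1 to AGGTCA. RefSeq gave 34 windows for 31 of the 40 genes. CCAAT occurred in 14 of these 34 windows, while it occurred in 37.4% of all 32851 windows. AGGTCA or its reverse complement TGACCT occurred in 8 of the 34 windows and in 16.3% of all windows. A direct repeat of AGGTCA with any 1 base between, the element of PPAR receptors and a special case of the motif above, occurred for 0 of the 31 genes and in 0.04% of windows. The sterol regulatory element TCACNCCAC occurred for Ehhadh alone and in 1.24% of windows, all searched on both strands. These matches describe letters in a short window and show no binding.

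The other peroxisomal genes were not called. They are Ehhadh and Hsd17b4, the bifunctional hydratase and dehydrogenase enzymes, and Acox3, an acyl-CoA oxidase of branched chains. Hsd17b4 stood at 10.07, 9.87 and 9.86 on bleomycin D, E and F, against 10.01, 10.09 and 9.85 on saline A, B and C, and the groups overlapped. Ehhadh differed by -0.004 ± 0.11 and Acox3 by 0.27 ± 0.13 (SE, adjusted p = 0.987 and 0.282). For Acox3 the bleomycin arrays, at 6.47 to 6.64, lay above the saline arrays, at 6.02 to 6.40. The peroxisomal genes thus had 0 called higher and 1 lower of 5, Acaa1b, where 3.70% and 1.90% of all genes were. Of the differences 1 was positive and 4 negative, where 57.0% of all genes were negative. The 4 include Ehhadh and Hsd17b4 (-0.05), which lay close to no difference.

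No gene of the mitochondrial pathway was called, in either direction. Of its 17 genes, 11 differences were positive and 6 negative, with a median of 0.08, where 57.0% of all genes were negative. At an unadjusted p under 0.05 there was 1 higher and 1 lower of 17, below the 22.7% over all genes. Of the 3 genes of the carnitine shuttle, Cpt1a, which encodes the gatekeeper of mitochondrial entry, stood at 9.86, 9.96 and 9.75 on bleomycin D, E and F, against 9.99, 9.93 and 9.61 on saline A, B and C. The difference was 0.01 ± 0.13 (SE, adjusted p = 0.97), and its sign turned under other scalings (-0.03 centred on ribosomal protein genes, -0.05 with repeated quantile normalization). Its other probe sets differed by -0.38 and -0.33. Cpt2, the inner-membrane partner, stood at 9.38, 9.10 and 8.95 on bleomycin D, E and F, against 9.12, 8.82 and 8.86 on saline A, B and C, with overlap. Cpt2 differed by 0.21 ± 0.14 (SE, adjusted p = 0.442), and Crat, which acts on acetyl-carnitine, by 0.21 ± 0.18.

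Within the beta-oxidation cycle the genes did not move one way. The dehydrogenases of the first step, Acadvl for very long, Acadl for long, Acadm for medium and Acads for short chains, differed by -0.04, 0.08, -0.23 and 0.08. Hadha and Hadhb, the subunits of the trifunctional protein, which handles long chains, differed by 0.33 ± 0.15 and 0.14 ± 0.13 (SE, adjusted p = 0.255 and 0.585). The bleomycin arrays of Hadha, at 9.21 to 9.36, lay just above the highest saline array, at 9.16. Echs1, the short-chain hydratase, differed by 0.22, and Decr1 and Ech1, which let unsaturated chains enter the cycle, by 0.16 and -0.05.

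The lower end of the mitochondrial genes was held by Acaa2 and Hadh. Acaa2, the mitochondrial thiolase, stood at 9.94, 10.26 and 9.78 on bleomycin D, E and F, against 10.74, 10.63 and 9.98 on saline A, B and C, so that saline C lay among the bleomycin lungs. Its difference was -0.46 ± 0.21 (SE, adjusted p = 0.261), and its other probe sets differed by -0.16 and 0.05. Hadh, the dehydrogenase for short chains, stood at 11.58, 11.96 and 11.59 on bleomycin D, E and F, against 12.24, 12.04 and 11.96 on saline A, B and C. The groups of Hadh did not overlap, although bleomycin E and saline C were almost level. The difference was -0.37 ± 0.14 (SE, adjusted p = 0.17), and its second brightest probe set differed by -0.42 ± 0.14 (SE, adjusted p = 0.142).

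Electrons from the first step pass through the flavoprotein of Etfa and Etfb to Etfdh, which hands them to the respiratory chain. Etfdh stood at 9.03, 8.99 and 8.89 on bleomycin D, E and F, against 8.72, 8.59 and 8.67 on saline A, B and C, with no overlap. Its difference was small, 0.31 ± 0.10 (SE, adjusted p = 0.129). Etfa and Etfb differed by -0.08 and 0.15, and their groups overlapped.

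**Figure D2:**
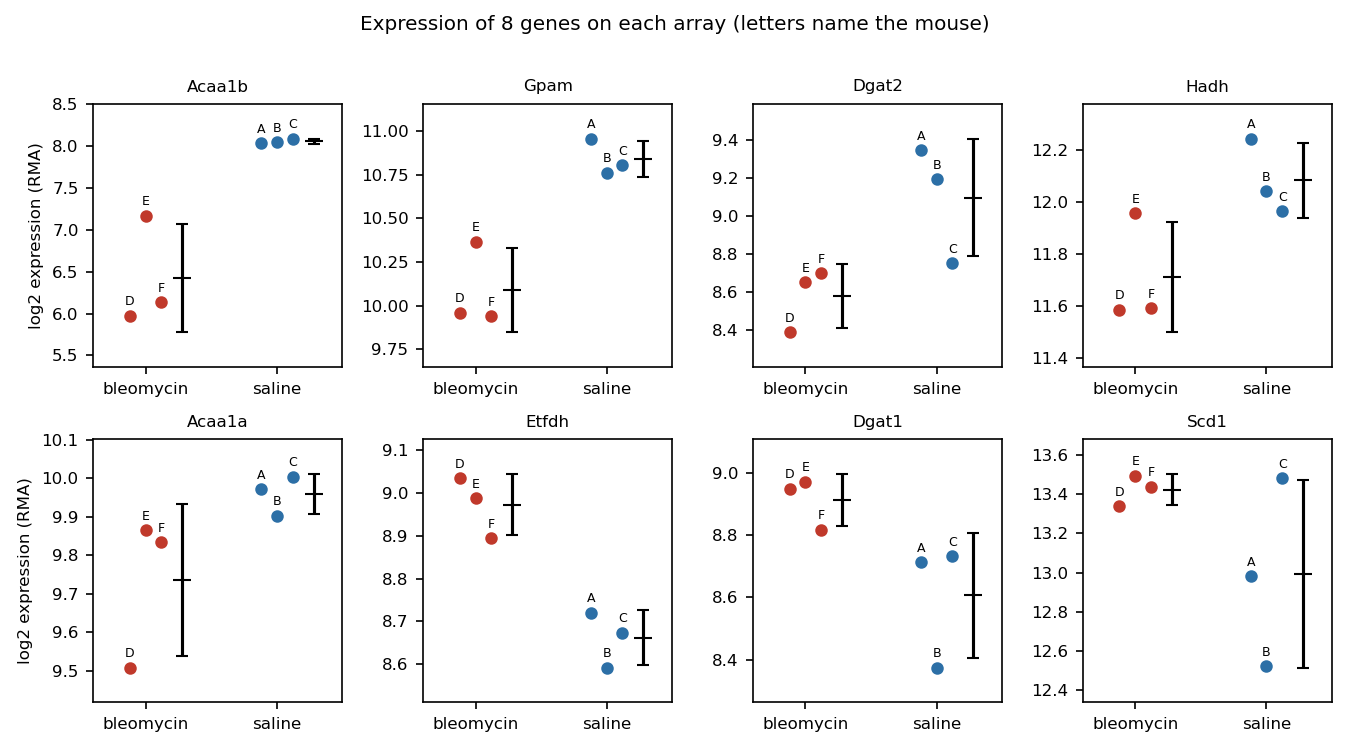
Log2 expression of 8 lipid genes on each array, with bleomycin (red, mice D, E and F) left of saline (blue, mice A, B and C) and the mean ± SD of each group in black; each panel has its own y axis. Acaa1b spans 5.97 to 7.17 in bleomycin and 8.03 to 8.09 in saline lungs, while Scd1 overlaps between the groups.

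Palmitate synthesis genes were not called. Acly, which makes acetyl-CoA from citrate, stood at 9.96, 10.82 and 10.76 on bleomycin D, E and F, against 10.69, 10.48 and 11.05 on saline A, B and C, so the lowest value was that of D and the others overlapped. Its difference was -0.23 ± 0.24 (SE, adjusted p = 0.628), and 0.05 without bleomycin D. Fasn, the fatty acid synthase, stood at 10.33, 10.80 and 10.92 on bleomycin D, E and F, against 10.41, 10.33 and 10.87 on saline A, B and C, with a difference of 0.15 ± 0.19 (SE, adjusted p = 0.705). Acaca, the acetyl-CoA carboxylase that commits carbon to synthesis, differed by -0.12 ± 0.12, with 5.74 to 6.06 in bleomycin and 5.98 to 6.14 in saline lungs.

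Of the 7 genes of elongation and desaturation, 0 were called in limma by their brightest probe set, and 0 had an unadjusted p under 0.05. Elovl1 and Elovl5, the elongases of saturated very long and of polyunsaturated chains, differed by 0.20 and -0.19, the bleomycin arrays of Elovl5 lying wholly below the saline arrays, and Elovl6, which extends palmitate, by -0.15. A dimmer probe set of Elovl1 stood at 11.43, 11.82 and 11.69 on bleomycin D, E and F, against 11.07, 11.35 and 10.77 on saline A, B and C, without overlap. It differed by 0.58 ± 0.17 (SE, adjusted p = 0.0902), and is the only Elovl1 probe set without the suffix x. The remaining Elovl1 probe set, also of suffix x, differed by 0.17. Fads1 and Fads2, the desaturases of polyunsaturated fats, differed by -0.15 and 0.12. Scd1, the stearoyl-CoA desaturase that makes oleate, had the most positive difference of all 40 genes. It stood at 13.34, 13.50 and 13.44 on bleomycin D, E and F, against 12.98, 12.52 and 13.48 on saline A, B and C. The bleomycin lungs were close together and the saline lungs spread, with saline C level with bleomycin. The difference was 0.43 ± 0.21 (SE, adjusted p = 0.295). Scd2, a second stearoyl-CoA desaturase, differed by -0.08 ± 0.15.

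The call depended on the probe set for Scd1, Acsl4 and, as given below, Gpam. The other probe set of Scd1 stood at 9.93, 10.26 and 10.60 on bleomycin D, E and F, against 8.62, 8.97 and 9.69 on saline A, B and C, without overlap. It rose by 1.17 ± 0.27 (SE, adjusted p = 0.0478), and the call was lost without bleomycin D (0.0558), E (0.0903) or F (0.143) and without saline A (0.121) or B (0.111). Acsl4 encodes an acyl-CoA synthetase that favours arachidonate, and acyl-CoA synthetases feed both oxidation and synthesis. Its brightest probe set stood at 9.28, 10.08 and 9.74 on bleomycin D, E and F, against 9.53, 9.66 and 9.63 on saline A, B and C, a difference of 0.09 ± 0.19 (SE, adjusted p = 0.816). A dimmer Acsl4 probe set stood at 7.79, 7.92 and 8.03 on bleomycin D, E and F, against 7.18, 6.89 and 6.92 on saline A, B and C. That probe set rose by 0.92 ± 0.12 (SE, adjusted p = 0.00668), also with any 1 array left out, and the remaining Acsl4 probe set differed by -0.02. Acsl5, the other synthetase read here, differed by 0.02 ± 0.13. Over all 70 probe sets of the 40 genes, 2 were called higher and 2 lower, while 3.29% and 1.45% of all probe sets were.

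**Figure D3:**
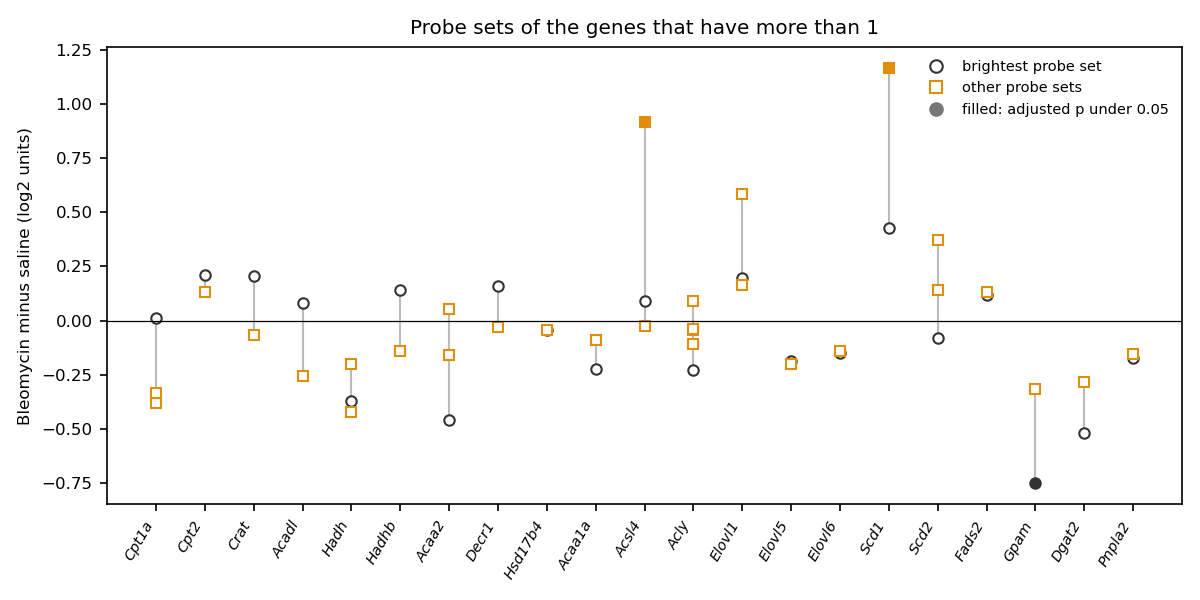
Difference between bleomycin and saline lungs (y axis, log2 units) for every probe set of the genes with more than 1, with the brightest as a circle and the others as squares; filled symbols passed an adjusted p of 0.05. Scd1 spans 0.43 to 1.17 and Acsl4 -0.02 to 0.92, while Elovl5 and Fads2 have probe sets that nearly coincide.

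Glycerolipid synthesis held the second call. Gpam encodes the mitochondrial acyltransferase that starts glycerolipid assembly from glycerol-3-phosphate. It stood at 9.96, 10.37 and 9.94 on bleomycin D, E and F, against 10.96, 10.76 and 10.80 on saline A, B and C. The groups did not overlap, and bleomycin E was again the one nearest to saline. The mean was 10.09 ± 0.24 in bleomycin and 10.84 ± 0.10 in saline lungs (SD, n = 3 each), a fall of 0.75 ± 0.14 (SE, adjusted p = 0.0238 in limma), or 1.68-fold lower. Its second probe set differed by -0.32 ± 0.10 (SE, adjusted p = 0.127). With 1 array left out, the call held only without bleomycin E. It was lost without bleomycin D (0.0651) or F (0.091) and without saline A (0.0873), B (0.0504) or C (0.0654), while the difference stayed between -0.68 and -0.89.

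The enzymes that close triglyceride synthesis, Dgat1 and Dgat2, lay on opposite sides of 0. Dgat2 stood at 8.39, 8.65 and 8.70 on bleomycin D, E and F, against 9.35, 9.19 and 8.75 on saline A, B and C, so that saline C was nearly level with bleomycin F. Its difference was -0.52 ± 0.17 (SE, adjusted p = 0.124). Dgat1 stood at 8.95, 8.97 and 8.82 on bleomycin D, E and F, against 8.71, 8.37 and 8.73 on saline A, B and C, a difference of 0.31 ± 0.13 (SE, adjusted p = 0.213). Neither gene had overlapping groups, and neither was called.

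Genes of lipolysis and the receptor were not called. Pnpla2, the triglyceride lipase of droplets, stood at 8.93, 9.25 and 9.42 on bleomycin D, E and F, against 9.49, 9.28 and 9.35 on saline A, B and C, with a difference of -0.17 ± 0.14 (SE, adjusted p = 0.531). Lipe, the hormone-sensitive lipase, differed by 0.14 ± 0.15. Ppara, the nuclear receptor that drives oxidation genes in mouse liver, stood at 4.94, 4.92 and 4.96 on bleomycin D, E and F, against 4.996, 5.34 and 5.05 on saline A, B and C, low on all arrays. It differed by -0.19 ± 0.12 (SE, adjusted p = 0.407). Ppara, Ehhadh and Acaca were the 3 genes with a mean under 6.

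Set side by side, oxidation and synthesis did not separate beyond the spread between mice. The median difference was 0.05 over the 22 oxidation genes and -0.12 over the 13 synthesis genes. Oxidation had 0 of 22 genes called higher and 1 lower, and synthesis had 0 of 13 higher and 1 lower. Over all genes, 3.70% were called higher and 1.90% lower, and each class count is a single gene. On each array the median deviation from the saline mean was taken over each class. For oxidation it was 0.07, 0.09 and -0.09 on bleomycin D, E and F, against 0.05, 0.06 and -0.10 on saline A, B and C. For synthesis it was -0.15, -0.07 and -0.02 on bleomycin D, E and F, against -0.01, -0.08 and 0.10 on saline A, B and C. Oxidation minus synthesis was thus 0.23, 0.16 and -0.07 in the bleomycin lungs, against 0.06, 0.14 and -0.20 in the saline lungs. The groups overlapped, and no test was made, since the genes are not replicates. Within oxidation, the peroxisomal median was 0.02, -0.09 and -0.12 on bleomycin D, E and F, against -0.02, 0.11 and 0.03 on saline A, B and C.

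**Figure D4:**
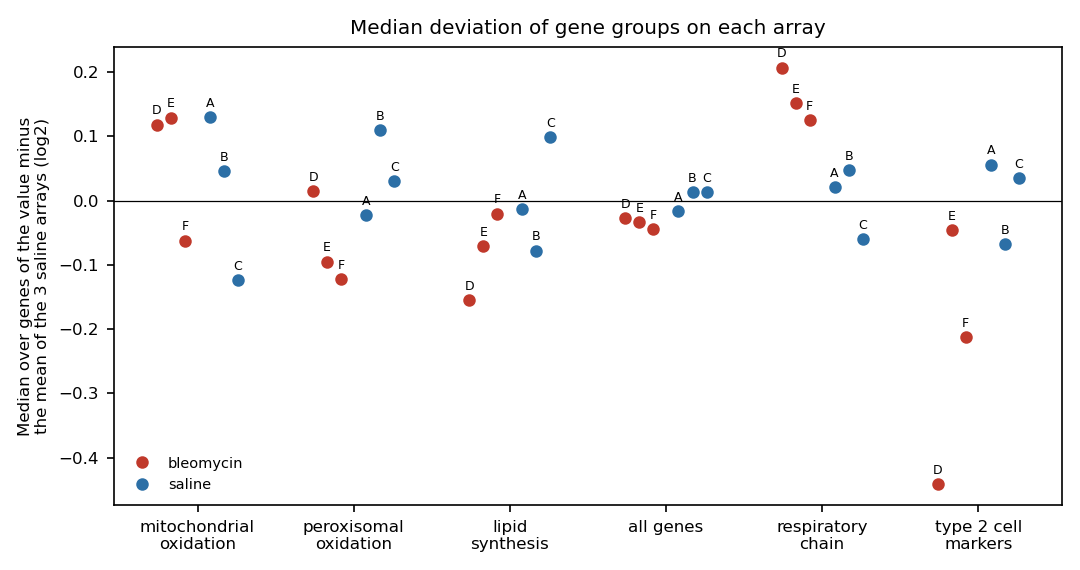
Median over the genes of a group of the value minus the mean of the 3 saline arrays (y axis, log2 units), per array, with bleomycin (red) left of saline (blue) and letters naming the mouse. Mitochondrial oxidation, peroxisomal oxidation and synthesis overlap between the groups, while the respiratory chain lies at 0.12 to 0.21 in bleomycin lungs, above all saline arrays.

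Other genes of both pathways, from lists of related genes, gave a similar count. Of 34 further genes of fatty acid oxidation, 0 were called higher and 1 lower, where the shares over all genes were 3.70% and 1.90%. The 34 genes had a median difference of -0.05. The gene called was Slc22a5, the plasma membrane carnitine transporter, which fell by 0.56 ± 0.11 (SE, adjusted p = 0.0276), a call lost without any 1 of the 6 arrays (adjusted p = 0.0522 to 0.0878). Of 15 genes of peroxisome biogenesis and matrix, 0 were called higher and 1 lower. That was the membrane protein Pxmp2, which fell by 0.53 ± 0.12 (SE, adjusted p = 0.0407, and 0.056 to 0.11 with any 1 array left out). Of the 15 differences, 3 were positive and 12 negative, where 57.0% of all genes were negative. The most negative, -0.76, was that of Cat, which was not called.

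Of 32 further genes of lipid synthesis, 2 were called higher and 1 lower, where 3.70% and 1.90% of all genes were. Lpcat3, which puts polyunsaturated chains into phosphatidylcholine, stood at 10.58, 10.47 and 10.56 on bleomycin D, E and F, against 9.67, 10.00 and 9.80 on saline A, B and C. It rose by 0.71 ± 0.12 (SE, adjusted p = 0.015, and 0.064 without bleomycin F, 0.058 without saline A and 0.0538 without saline C). Hacd1, a dehydratase of chain elongation, rose by 0.79 ± 0.17 (SE, adjusted p = 0.0412), and passed with 1 array left out only without bleomycin E, with 0.0552 to 0.118 in the others. Lpin2, a phosphatidate phosphatase, fell by 0.75 ± 0.13 (SE, adjusted p = 0.0175), with 0.0647 without bleomycin F and 0.0682 without saline A. Without bleomycin D, and likewise without saline B, this list had 1 gene higher and 1 lower.

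Of 21 regulators of lipid metabolism, 0 were called higher and 2 lower, where 3.70% and 1.90% of all genes were. The regulators had 6 positive and 15 negative differences, where 57.0% of all genes were negative. Klf15, a zinc finger factor that controls fatty acid handling in mouse heart and muscle, stood at 7.44, 7.74 and 7.37 on bleomycin D, E and F, against 9.41, 9.17 and 8.47 on saline A, B and C. It fell by 1.50 ± 0.23 (SE, adjusted p = 0.0112, and 0.0545 without saline A). Sirt1, a NAD-dependent deacetylase, fell by 0.88 ± 0.15 (SE, adjusted p = 0.0156, and 0.0593 without bleomycin F and 0.0694 without saline A). Both calls held without bleomycin D and without saline B. Of the regulators not called, the most positive difference was that of Pparg, the lipid-sensing receptor of adipocytes and alveolar macrophages, with 8.55, 8.21 and 7.95 on bleomycin D, E and F, against 7.59, 7.78 and 7.34 on saline A, B and C. It differed by 0.67 ± 0.18 (SE, adjusted p = 0.0716). Srebf1, the activator of fatty acid synthesis genes, differed by -0.29 ± 0.14 (SE, adjusted p = 0.269).

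Among these lists of lipid genes, the largest share of called genes was in that of lipid uptake, droplets and lipolysis, with 3 higher and 4 lower of 24. Over all genes, 3.70% were called higher and 1.90% lower. Lipa, the lysosomal acid lipase, stood at 11.25, 11.53 and 11.50 on bleomycin D, E and F, against 9.99, 10.32 and 10.20 on saline A, B and C. It rose 2.38-fold, by 1.25 ± 0.13 (SE, adjusted p = 0.00214), and its call held with any 1 array left out. Lpl, the lipoprotein lipase, stood at 12.79, 12.61 and 12.51 on bleomycin D, E and F, against 11.28, 11.79 and 11.90 on saline A, B and C. It rose 1.97-fold (adjusted p = 0.0179, and 0.0506 without bleomycin F). Plin2, a droplet coat protein, rose by 0.71 ± 0.14 (SE, adjusted p = 0.0277), and with 1 array left out it passed only without bleomycin D, with 0.0512 to 0.0928 in the others.

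The genes called lower in this list were G0s2, Vldlr, Hilpda and Plin4. Of its 24 differences 15 were negative, where 57.0% of all genes were. The most negative, -1.20, was that of Fabp1, which was not called. G0s2, an inhibitor of the lipase of Pnpla2, stood at 8.26, 8.81 and 8.71 on bleomycin D, E and F, against 9.66, 9.87 and 9.61 on saline A, B and C. It fell by 1.11 ± 0.16 (SE, adjusted p = 0.00881, and 0.0513 without saline A). Vldlr, a receptor of triglyceride-rich lipoproteins, fell by 0.87 ± 0.18 (SE, adjusted p = 0.0343, with 0.0768 without bleomycin D, 0.106 without bleomycin F, 0.107 without saline A and 0.0951 without saline C). Hilpda, a droplet protein induced by hypoxia, fell by 0.86 ± 0.18 (SE, adjusted p = 0.0361) and passed with 1 array left out only without saline B, with 0.0543 to 0.112 in the others. Plin4, another droplet coat protein, fell by 0.54 ± 0.11 (SE, adjusted p = 0.0312) and passed only without bleomycin D, with 0.065 to 0.0969 in the others. Without bleomycin D the list had 3 genes higher and 2 lower, and without saline B 2 and 3.

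**Figure D5:**
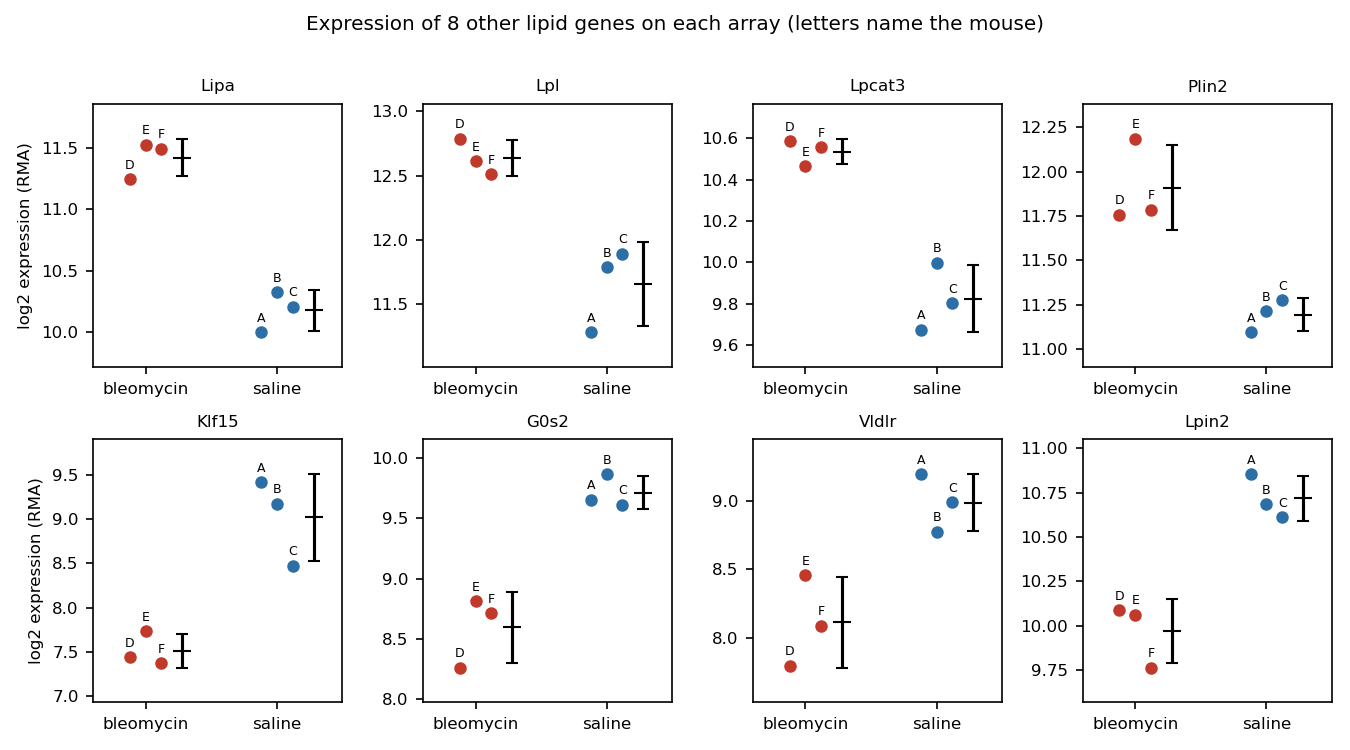
Log2 expression of 8 lipid genes outside the 40 on each array, with bleomycin (red, mice D, E and F) left of saline (blue, mice A, B and C) and the mean ± SD of each group in black; each panel has its own y axis. All 8 were picked from the genes called, so the lack of overlap in every panel largely follows from that choice. Over all genes, the groups did not overlap for 27.9%. Lipa, Lpl, Lpcat3 and Plin2 are higher and Klf15, G0s2, Vldlr and Lpin2 lower in bleomycin lungs.

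The mitochondrial steps beside oxidation were not called either. Of 23 citrate cycle genes and 28 respiratory chain genes, 0 were called in either direction in limma, and at an unadjusted p under 0.05 there were 1 and 2, all higher, where 11.7% of all genes were. Their medians were 0.15 and 0.18, against -0.04 over all genes. Of the differences, 19 and 26 were positive, where 57.0% of all genes were negative. Sdhd, a subunit of succinate dehydrogenase, and Cox5a, a subunit of cytochrome oxidase, had the largest differences, with 0.42 ± 0.15 and 0.46 ± 0.15 (SE, adjusted p = 0.149 and 0.13).

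Marker genes of several lung cell types differed between the groups beside these results. The shares called over all genes were 3.70% higher and 1.90% lower. Markers of recruited macrophages averaged 9.92 to 10.21 on the bleomycin arrays, against 7.34 to 7.71 on the saline arrays, with 11 of 13 called higher and 0 lower. Those of resident alveolar macrophages averaged 8.70 to 9.12 in bleomycin and 8.57 to 9.10 in saline lungs, with 2 of 10 higher and 1 lower (2 and 0 without saline B). Markers of alveolar fibroblasts and lipofibroblasts averaged 9.65 to 9.98 in bleomycin and 10.32 to 10.36 in saline lungs, with 1 of 11 called higher, Plin2, and 5 lower (1 and 4 without bleomycin D, 0 and 1 without saline B). Markers of type 2 cells averaged 11.23 to 11.67 in bleomycin and 11.63 to 11.75 in saline lungs, with 0 of 11 called in either direction in limma. At an unadjusted p under 0.05, 2 of the 11 were lower, where 11.0% of all genes were. Sftpc, the defining surfactant gene of that cell, stood at 13.98 to 14.32 in bleomycin and 14.33 to 14.38 in saline lungs. Of the 11 type 2 markers, 7 differences were negative and 4 positive, where 57.0% of all genes were negative. Markers of adipocytes averaged 7.10 to 7.62 in bleomycin and 7.52 to 7.72 in saline lungs, with 0 of 7 higher and 1 lower, and those of cardiac muscle, which lines pulmonary veins in mice, 7.50 to 7.95 in bleomycin and 8.08 to 8.81 in saline lungs, with 0 of 12 higher and 1 lower (0 and 2 without saline B). Of type 1, ciliated, club and endothelial markers, 1 of 7, 1 of 5, 1 of 6 and 2 of 10 were called lower and 0 higher. Without bleomycin D the single calls of the type 1, ciliated, club and adipocyte lists were lost, and without saline B those of the type 1, club and adipocyte lists, while the endothelial count was 3. The endothelial genes called, Kdr and Ramp2, were both lost without saline A (adjusted p = 0.0584 for each), and Kdr without bleomycin F (0.0508). Bleomycin D had the lowest mean of the type 2, type 1, fibroblast, adipocyte, cardiac, ciliated, club and endothelial lists. The part of these cell types in the falls of Acaa1b, Gpam and G0s2 and in the rises of Lipa, Lpl and Plin2 was not tested.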

How the data were processed

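The authors deposited log2 expression per probe set. RMA, which includes a quantile step, made these values, per the series text and the submitters' processing notes. Its software version is not given in the sources used here, and the log base was settled from the range of the values. The table held 22690 probe sets, of which 64 controls were left out. Probe sets took their symbols from GEO's platform annotation: 20380 had 1 symbol, 691 several and 1555 none, and 20351 were matched by Entrez ID to RefSeq names of GRCm38.p6. The comparison of bleomycin with saline used limma 3.58.1 under R 4.3.3 (lmFit, then eBayes, without covariates or filter), as the labels give no batch and separate mice, and p-values were adjusted over all 22626 probe sets at a threshold of 0.05. Lists of further lipid genes and of cell type markers were fitted in the same way and described by counts. The genes and lists were chosen with earlier results of these data known. The rule named every listed gene, with values on every array for those called and the largest difference of each role, and, of each further list, up to 4 called genes with the largest differences, or the largest difference where none passed. Plin2, Hilpda, Plin4, Pparg, Srebf1, Fabp1, Cat, Sftpc, Kdr and Ramp2 lay outside that rule and were named after their values were seen. So were the Scd1, Acsl4 and Elovl1 probe sets beside the brightest. Promoter sequences are RefSeq's. The fit was tested on simulated data. Plots were made by matplotlib 3.10.9 under Python 3.11.15. The alternatives were a filter at a mean of 6, other priors, weights, scalings, probe set choices and thresholds of 0.01 and 0.1, and leaving out each array.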

Additional observations from a re-analysis of the deposited data

How the results depend on the processing

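No paired analysis was possible because no letter from A to F recurs between arrays. Over all genes 694 were called, against 163 at an adjusted p of 0.01, 1279 at 0.1 and 185 to 550 with 1 array left out. Of the 40 lipid genes, 0 were called higher under any alternative, and 2 were called lower, against 0 at an adjusted p of 0.01 and 0 to 2 with 1 array left out. The count was 0 without bleomycin F, saline A or saline C and 1 without bleomycin D or saline B. The fewer samples of these fits lower their power. The oxidation median was -0.02 to 0.08 under the alternatives run, so its sign changed, and the synthesis median was -0.17 to -0.04. Oxidation minus synthesis was 0.04 to 0.21, against 0.16 in the main fit. Both medians moved from their main values of 0.05 and -0.12 by less than the SD between replicates (0.097 and 0.079). That SD describes the median of a single array and is not the SE of a difference between groups. The difference changed sign in 13 genes, of which Acly had the largest (-0.23), and the cause was not tested. Centring on ribosomal protein genes gave -0.034 for Cpt1a and -0.026 for Acsl5. Repeated quantile normalization gave -0.050 for Cpt1a, -0.066 for Acsl5 and 0.062 for Ehhadh. The mean of a gene's probe sets gave -0.24 for Cpt1a, -0.090 for Acadl, -0.00089 for Hadhb and 0.14 for Scd2. With 1 array left out, Cpt1a ran between -0.10 and 0.086, Acadvl between -0.16 and 0.057, Etfa between -0.21 and 0.11, Etfb between -0.024 and 0.25, Ehhadh between -0.058 and 0.061, Hsd17b4 between -0.12 and 0.0093, Acsl4 between -0.10 and 0.30, Acsl5 between -0.059 and 0.13, Acly between -0.38 and 0.048, Scd2 between -0.24 and 0.012, and Lipe between -0.0017 and 0.24. Of 515 values of single genes under the alternatives, 482 kept their direction and side of the threshold, 8 lost the call and 25 changed sign. Scanner files, detection calls and scan dates were not used here, so signal over background and batches were not examined.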
